A study of Mus musculus with 9 samples.

Results

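Cells keep reactive oxygen species and reactive carbonyls in check with a set of enzymes that share glutathione, thioredoxin and NADPH as their currency. Superoxide dismutases turn superoxide into hydrogen peroxide, and catalase, glutathione peroxidases and peroxiredoxins remove the peroxide. Many of these genes are driven by the transcription factor NRF2, which KEAP1 holds back until oxidants modify it. The glyoxalase pathway uses glutathione to clear methylglyoxal, a by-product of glycolysis: glyoxalase 1 (Glo1) forms lactoylglutathione, and glyoxalase 2 (Hagh) splits it into lactate and free glutathione. Working skeletal muscle is known for a high flux through glycolysis and for oxidant production that rises with contraction. The 34 genes described here were chosen by name for these roles, with earlier results of these data known. Of these, 32 had a probe set, 1 for each gene, among the 19505 gene symbols measured, and Prdx5 and Prdx6 were not analysed here.

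Tibialis anterior, the fast-twitch muscle at the front of the shin, was profiled in 3 genotypes with 3 arrays each. These were MCU knockout (MCU-/-/MCUb+/+), MCUb knockout (MCU+/+/MCUb-/-) and control (MCU+/+/MCUb+/+), all on the C57/BL6 strain and 2 months old, with no treatment named. MCU is the pore of the channel that takes calcium into mitochondria, and MCUb is a related subunit of that channel. The tissues in which the genes were deleted, any Cre driver, the sex and the litters of the mice are not given in the sources used here. Whether each sample of a genotype is a different animal is not stated, and the p-values then reflect only sample-to-sample spread, which may be technical. All values are deposited signals read as log2, and folds rest on that reading. Each array had a background limit, the 95th percentile of its 23 background sets, which lay at 5.87 to 5.92. Differences were tested with limma over all 22206 probe sets, with a threshold of 0.05 on the Benjamini-Hochberg adjusted p. Group means carry the SD with n = 3 arrays, and log2 changes the standard error (SE) of the fit.

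Of the 32 measured genes, 1 was past this threshold in MCU knockout against control, where 0.14% of all probe sets did: Hagh fell 2.86-fold in MCU knockout muscle. Its signal was also lower in MCU knockout than in MCUb knockout muscle, where the adjusted p was 0.0509. Glrx and Gclm had higher signals in MCU knockout muscle and Srxn1 a lower one, each without overlap with control and none past the threshold. Such non-overlap held for 7 of the 32 genes (21.9%), against 13.4% of all probe sets. Srxn1 was under the background limit on every MCU knockout array. The 3 highest Gclm values lay on the 3 arrays with a high signal of Y-linked genes. Between MCUb knockout and control 0 of the 32 genes passed in limma, where 0.0225% of all probe sets did. At an unadjusted p under 0.05 the count was also 0, against 8.11% of all probe sets. As the genes were chosen with earlier results known, these counts may not be independent of the data.

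The sequences before the starts of these 4 genes are shown because NRF2 is known to act through a short element in the promoters of many redox genes. They come from RefSeq on GRCm38.p6, all on the plus strand, from the window of 250 bases before the first start listed for each gene. The Hagh stretch at chr17:24850303-24850489 leaves out bases of Fahd1, a gene that lies on the opposite strand inside the annotated span of Hagh. The stretch itself also lies inside that span, after the first annotated base of Hagh. The Glrx stretch is chr13:75839635-75839884 and the Srxn1 stretch chr2:152105274-152105523. For Gclm, chr3:122245307-122245486 stops before the first annotated base of the gene. Capitals mark matches to TGACNNNGC or TGAGNNNGC, the core of the antioxidant response element and a variant of it, searched on both strands.
Hagh: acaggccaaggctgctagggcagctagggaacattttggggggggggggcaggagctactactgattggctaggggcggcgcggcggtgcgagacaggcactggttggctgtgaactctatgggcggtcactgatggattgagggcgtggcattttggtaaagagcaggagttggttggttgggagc
Glrx: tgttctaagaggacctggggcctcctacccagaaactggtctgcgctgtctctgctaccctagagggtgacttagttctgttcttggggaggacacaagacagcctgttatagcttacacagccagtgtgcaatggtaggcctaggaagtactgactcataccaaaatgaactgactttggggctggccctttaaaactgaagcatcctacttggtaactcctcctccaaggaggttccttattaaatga
Srxn1: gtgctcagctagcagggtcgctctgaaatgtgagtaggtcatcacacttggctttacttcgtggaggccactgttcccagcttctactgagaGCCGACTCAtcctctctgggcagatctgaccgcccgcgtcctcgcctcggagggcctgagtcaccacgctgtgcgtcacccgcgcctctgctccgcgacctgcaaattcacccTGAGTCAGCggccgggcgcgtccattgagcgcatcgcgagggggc
Gclm: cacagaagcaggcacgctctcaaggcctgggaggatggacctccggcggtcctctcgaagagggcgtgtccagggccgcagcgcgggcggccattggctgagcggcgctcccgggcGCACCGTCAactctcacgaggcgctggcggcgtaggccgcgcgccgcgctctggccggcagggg
Srxn1 held 2 matches, 1 on each strand, and Gclm held 1 on the minus strand, while the stretches shown for Hagh and Glrx held 0. Hagh and Glrx have 2 windows listed each, and only the first was searched, so the 0 does not cover all their starts. The plus-strand match of Srxn1, TGAGTCAGC, also contains TGAGTCA, the motif of the AP-1 factors. Such matches were common: 23.0% of 32851 windows of 250 bases held at least 1, as did 18.2% of the stretches of 187 bases and 17.7% of those of 180 bases next to a start. The Gclm stretch, which ends at base 122245486, is not next to its first listed start at 122245557, so the 17.7% describes another position. A match is a run of letters and no measured binding site.

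Several properties of the arrays bear on what follows. Mcu had log2 signals of 6.80, 6.98 and 7.06 in MCU knockout muscle and of 10.38, 10.96 and 10.46 in control, a change of -3.65 (SE 0.20, limma adjusted p = 3.47e-05). Whether its probes fall in the deleted part is unknown, and Mcub was not analysed here. Control replicate 3 stood apart: its mean correlation with the other arrays was 0.978, against 0.985 to 0.988 for the rest, and it was the highest or lowest of the 9 arrays for 40.5% of all probe sets. The Y-linked genes Uty and Kdm5d had a mean log2 signal of 7.56 and 7.24 on MCU knockout replicates 2 and 3 and of 7.80 on MCUb knockout replicate 1, whereas it was between 3.01 and 3.89 on the 6 remaining arrays. All values of the 3 arrays were above or below those of the other 6 for 3 of the 32 genes (Gpx3, Gclm and Hmox1), where 3.57% of all probe sets did so. All 8 muscle markers were above background on every array. Of the marker genes of blood, immune, endothelial, fibroblast, fat or slow-fibre origin, 0 passed in any comparison. As 0.0225% to 0.158% of all probe sets passed, that count says little on the cell types present. For blood, 2 of 7 erythroid genes were measured. Mean endothelial marker signals ran from 9.27 to 9.37 in MCU knockout, 8.40 to 9.08 in MCUb knockout and 8.81 to 9.77 in control. For fat markers they ran from 8.61 to 8.70, 8.29 to 8.42 and 8.53 to 9.09 in that order. Of these 6 fat markers, 2 were above background on all 9 arrays, and Plin1 and Cidec on 0. The other marker lists overlapped between groups. In whole muscle, fewer cells of a type and less RNA per cell cannot be told apart.

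Hagh, the second enzyme of the glyoxalase pathway (probe set TC1700000354.mm.2, chromosome 17), had log2 signals of 9.95, 10.28 and 9.65 in MCU knockout muscle. In MCUb knockout muscle they were 11.12, 11.24 and 11.41, and in control 11.68, 11.56 and 11.18. Every MCU knockout array lay below every array of the other groups, while MCUb knockout and control overlapped. The means were 9.96 ± 0.31 in MCU knockout, 11.25 ± 0.15 in MCUb knockout and 11.47 ± 0.26 in control (SD, n = 3 each). The log2 change of MCU knockout against control was -1.51 (SE 0.21, 95% interval -1.99 to -1.04, limma adjusted p = 0.0205). Against MCUb knockout it was -1.29 (SE 0.21, 95% interval -1.77 to -0.82), a 2.45-fold lower signal that did not pass (limma adjusted p = 0.0509). MCUb knockout differed from control by -0.22 (limma adjusted p = 0.794). The call against control was lost without control replicate 1, where the adjusted p was 0.102, with MCU knockout replicate 1 left out (0.0551) and with replicate 3 of that genotype left out (0.111). It was also lost when the fit held only the 6 arrays compared (adjusted p = 0.116) or the Y-linked level as a covariate (0.186), and the log2 change stayed between -1.67 and -1.36 over all 18 alternatives.

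**Figure D1:**
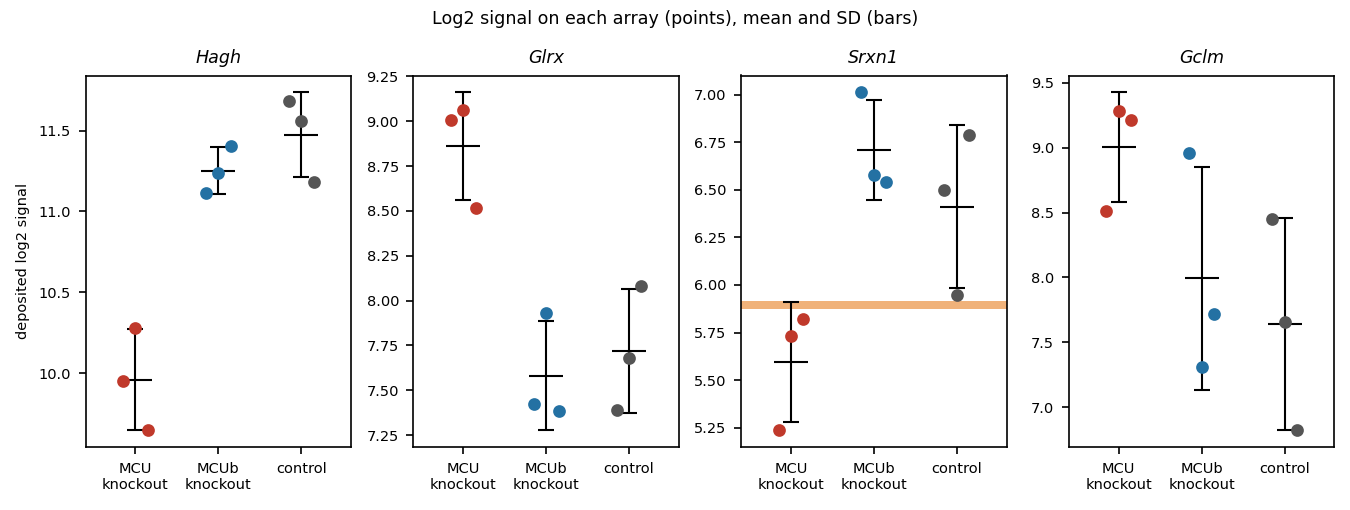
Deposited log2 signal of Hagh, Glrx, Srxn1 and Gclm on each array (points), with mean and SD (bars), for MCU knockout, MCUb knockout and control. The shaded band in the Srxn1 panel is the background limit of 5.87 to 5.92. The MCU knockout points of Hagh, at 9.65 to 10.28, lie below all the others, and those of Glrx, at 8.52 to 9.06, lie above all the others.

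Glo1 acts just before Hagh in the same pathway. Its log2 signals were 13.68, 13.58 and 13.54 in MCU knockout, 13.41, 13.52 and 13.67 in MCUb knockout and 13.56, 13.78 and 13.59 in control. The change of MCU knockout against control was -0.04 with a 95% interval of -0.41 to 0.32, and that of MCUb knockout was -0.11. All 3 groups overlapped, and the pooled SD within groups of 0.11 was among the smallest of the 32 genes.

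Both glyoxalase genes lie on chromosome 17, and the genes beside them were read as well. In MCU knockout against control, 0 of the 6 measured neighbours of Hagh passed, where 0.14% of all probe sets did. At that share the count says little on how local the Hagh difference was. Fahd1, a mitochondrial acylpyruvase inside the Hagh span, had a log2 change of -0.27 (adjusted p = 0.753), and Nubp2, an iron-sulfur cluster assembly factor, one of 0.48 (adjusted p = 0.494). Msrb1, a methionine sulfoxide reductase and thus itself a redox gene, had a change of -0.71 (adjusted p = 0.499). Its log2 signals of 10.25, 10.71 and 10.62 in MCU knockout lay below the 11.29, 11.04 and 11.37 in control. Igfals, a carrier of insulin-like growth factors, averaged 5.36 in MCU knockout, above background on 0 of 3 arrays, and 6.37 in control, above on 2 of 3 (adjusted p = 0.471). Hs3st6 and Meiob were above background on 0 arrays. Unadjusted limma p-values of the remaining Hagh neighbours were 0.0361 for Igfals, 0.0498 for Nubp2, 0.0524 for Msrb1 and 0.332 for Fahd1. Around Glo1, the neighbours above background were Mdga1, Zfand3 and Btbd9, with changes of -0.09, -0.08 and -0.23.

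**Figure D2:**
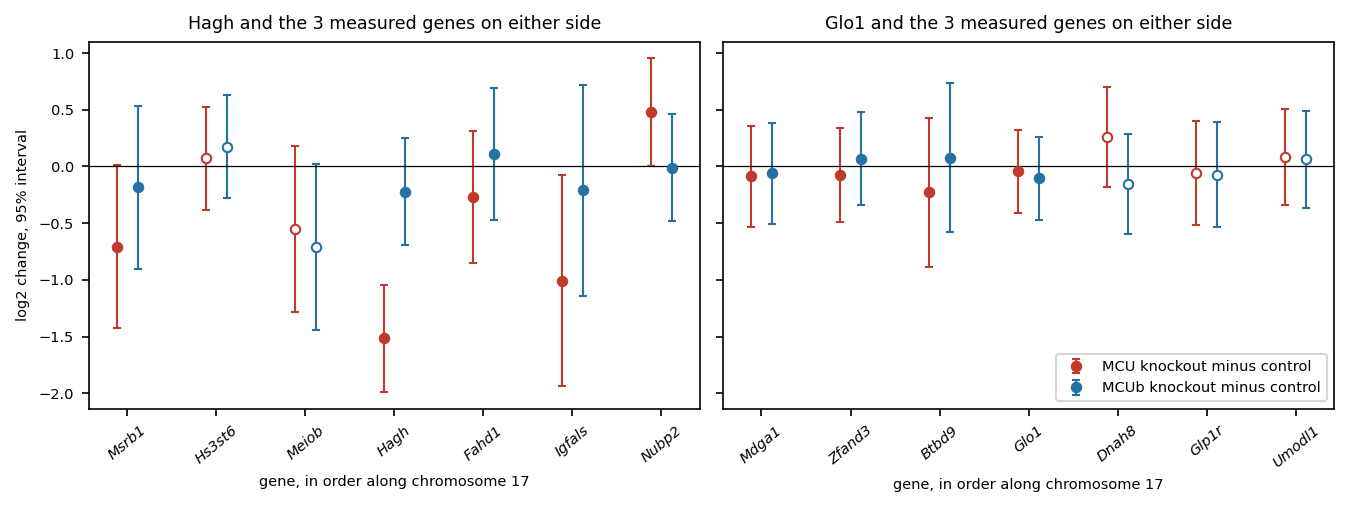
Log2 change (vertical axis, 95% interval of the limma fit as bars) of Hagh, Glo1 and the 3 measured genes on either side of each, in their order along chromosome 17. Red is MCU knockout minus control, blue is MCUb knockout minus control, and open symbols are genes above background on 0 arrays. Hagh at -1.51 is the only one of these genes past the threshold, and Glo1 lies at -0.04.

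Thioredoxins and glutaredoxins reduce disulfides in proteins, drawing on NADPH through thioredoxin reductases or through glutathione. Glrx, the cytosolic glutaredoxin (TC1300000919.mm.2, chromosome 13), had log2 signals of 9.004, 9.06 and 8.52 in MCU knockout muscle. They were 7.42, 7.93 and 7.39 in MCUb knockout and 7.39, 7.68 and 8.08 in control. Each MCU knockout array was above all the others, and the remaining groups overlapped. The log2 change of MCU knockout against control was 1.14 (SE 0.24, 95% interval 0.61 to 1.68), a 2.21-fold higher signal with a limma adjusted p of 0.164. Against MCUb knockout it was 1.28 (95% interval 0.74 to 1.82, limma adjusted p = 0.112), and MCUb knockout differed from control by -0.14 (0.901). The adjusted p against control ran from 0.115 to 0.430 over the alternatives, so it passed under none of them.

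Txnrd1, the cytosolic thioredoxin reductase, had log2 signals of 12.15, 12.14 and 12.22 in MCU knockout, 12.68, 11.85 and 12.70 in MCUb knockout, and 12.56, 12.36 and 13.20 in control. The MCU knockout arrays lay below the controls, by a change of -0.53 (SE 0.27, limma adjusted p = 0.540), while the MCUb knockout arrays overlapped both. Without control replicate 3, the highest array, the change was -0.29. Txnrd2, its mitochondrial counterpart, read 8.99, 9.61 and 9.41 in MCU knockout, 9.44, 9.71 and 8.62 in MCUb knockout and 9.79, 9.51 and 9.78 in control. The change of MCUb knockout was -0.43 (adjusted p = 0.688) and that of MCU knockout -0.35, and all groups overlapped. Without MCUb knockout replicate 3, the lowest array, the change of MCUb knockout was -0.12, and without replicate 2 of that genotype it was -0.66. Txn2, the mitochondrial thioredoxin, had 11.07, 10.94 and 10.64 in MCU knockout, 10.47, 10.81 and 10.98 in MCUb knockout and 10.94, 10.98 and 11.30 in control. Its change in MCUb knockout was -0.32 (adjusted p = 0.688), and -0.18 without MCUb knockout replicate 1 or -0.21 without control replicate 3. Cytosolic Txn1 and mitochondrial Glrx2 stayed within 0.17 of control in either knockout.

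Peroxiredoxins reduce peroxides with a reactive cysteine, and sulfiredoxin (Srxn1) repairs that cysteine once it is overoxidised. Srxn1 (TC0200002275.mm.2, chromosome 2) had log2 signals of 5.24, 5.73 and 5.82 in MCU knockout muscle, all under the background limit. It had 7.01, 6.58 and 6.54 in MCUb knockout and 6.50, 5.95 and 6.79 in control, all above it. The MCU knockout arrays thus did not overlap with the others. Since the MCU knockout signal is only a bound, Srxn1 was at least 1.42-fold lower than in control (limma adjusted p = 0.358) and at least 1.75-fold lower than in MCUb knockout (limma adjusted p = 0.250). MCUb knockout differed from control by 0.30 (adjusted p = 0.766). Prdx1, Prdx2 and Prdx3, the last being the mitochondrial form, had changes of -0.07, 0.21 and 0.08 in MCU knockout and of 0.06, 0.04 and 0.21 in MCUb knockout. Prdx4, the peroxiredoxin of the secretory pathway, was above background on 8 arrays and had the widest control spread of the 4 at 6.65 ± 0.74, with changes of -0.35 and -0.27 in the knockouts.

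Glutathione is made in consecutive steps by glutamate-cysteine ligase, whose catalytic and modifier subunits are Gclc and Gclm, and by glutathione synthetase (Gss). Gclm (TC0300001244.mm.2, chromosome 3) had log2 signals of 8.51, 9.28 and 9.21 in MCU knockout, 8.96, 7.31 and 7.71 in MCUb knockout and 8.45, 7.65 and 6.82 in control. The MCU knockout arrays lay above the controls, the closest pair 8.51 and 8.45, and overlapped with MCUb knockout. The log2 change of MCU knockout against control was 1.36 (SE 0.46, 95% interval 0.34 to 2.38), 2.57-fold higher and not past the threshold (limma adjusted p = 0.383). The 3 arrays with high Y-linked signal had the 3 highest Gclm values, 9.28, 9.21 and 8.96. Adding the Y-linked level to the fit gave 0.70 (adjusted p = 0.741). Without control replicate 3 it was 0.95 (adjusted p = 0.656).

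Gclc had log2 signals of 7.14, 7.95 and 7.50 in MCU knockout, 7.67, 7.52 and 6.77 in MCUb knockout and 6.85, 7.31 and 6.89 in control. The groups overlapped, with changes of 0.51 (adjusted p = 0.565) and 0.30 (adjusted p = 0.787) in the knockouts in that order. The change in MCU knockout was 0.30 without MCU knockout replicate 2 and 0.21 with the Y-linked level in the fit. That in MCUb knockout ran from 0.13 without MCUb knockout replicate 1 to 0.58 without MCUb knockout replicate 3. Gss read 5.53, 5.70 and 5.58 in MCU knockout, 5.17, 5.45 and 5.41 in MCUb knockout and 5.33, 5.95 and 6.26 in control. It was above background on 2 arrays, both controls, so no fold is given, although it had the smallest p of the 32 genes between MCUb knockout and control (adjusted p = 0.619). Gsr, which reduces oxidised glutathione, was the most variable of the 32 genes: its MCUb knockout arrays read 7.48, 8.62 and 6.26, and its changes were 0.08 and -0.03.

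Glutathione transferases couple glutathione to electrophiles. Gstm1, a cytosolic transferase, had log2 signals of 13.34, 12.77 and 12.85 in MCU knockout, 13.12, 12.80 and 12.97 in MCUb knockout and 13.54, 13.08 and 13.61 in control. Its change was -0.42 in MCU knockout (adjusted p = 0.549) and -0.45 in MCUb knockout (adjusted p = 0.620), with overlap in both. Gsta4, which clears the lipid peroxidation product hydroxynonenal, had changes of 0.08 and 0.21 in the knockouts, and Gstp1 0.25 and 0.20.

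Among the primary antioxidant enzymes, the changes against control of either knockout lay between -0.16 and 0.25. Sod1, the cytosolic dismutase, had the smallest spread of all 32 genes, a pooled SD of 0.089. Its MCUb knockout arrays, at 17.73 to 17.74, lay just below the controls at 17.77 to 18.02, a change of -0.16 (adjusted p = 0.799). Sod2, the mitochondrial dismutase, read 12.53, 12.73 and 12.76 in MCU knockout, 12.18, 12.53 and 12.43 in MCUb knockout and 12.56, 12.42 and 12.62 in control. Its MCU knockout arrays lay just above the highest MCUb knockout array, by a mean difference of 0.30 (adjusted p = 0.969). Catalase (Cat) had changes of 0.06 in MCU knockout and -0.13 in MCUb knockout. Of the glutathione peroxidases, Gpx1 had 0.23 and -0.05, the secreted Gpx3 0.25 and 0.01, and Gpx4, which reduces lipid peroxides in membranes, 0.02 and -0.08. The MCU knockout arrays of Gpx3, at 10.83 to 11.02, lay above the controls at 10.58 to 10.79 (adjusted p = 0.703).

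Nfe2l2, which encodes NRF2, had log2 signals of 4.13, 4.24 and 4.26 in MCU knockout, 3.76, 3.92 and 4.11 in MCUb knockout and 4.02, 4.03 and 3.91 in control. These were below the background limit on all 9 arrays, so the arrays gave no order for this transcript. Keap1 was well measured, at 11.67, 11.71 and 11.98 in MCU knockout, 12.02, 11.60 and 11.55 in MCUb knockout and 12.17, 11.83 and 12.45 in control. It had changes of -0.36 (adjusted p = 0.598) and -0.43 (adjusted p = 0.623), with overlap in both, and of -0.21 and -0.28 without control replicate 3. With the Y-linked level in the fit, the change in MCU knockout was -0.58. Hmox1, the inducible haem oxygenase, was above background on 0 arrays. Nqo1, a quinone reductase and a classical NRF2 target, was above it on 6 arrays, with means of 5.94 ± 0.08 in MCU knockout, 6.16 ± 0.57 in MCUb knockout and 5.59 ± 0.98 in control. Its lowest value, 4.47, was on control replicate 3.

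Metallothioneins are small cysteine-rich proteins that bind zinc and copper and are induced by metals and stress. Mt1 had log2 signals of 8.04, 7.65 and 8.82 in MCU knockout, 7.84, 8.45 and 8.50 in MCUb knockout and 8.37, 8.60 and 7.53 in control. Mt2 had 8.38, 7.50 and 8.60 in MCU knockout, 6.91, 7.997 and 8.40 in MCUb knockout and 7.47, 8.02 and 8.07 in control. All 3 groups overlapped for both genes. The changes in MCU knockout were 0.00 for Mt1 and 0.31 for Mt2, with 95% intervals of -0.76 to 0.77 and -0.54 to 1.16.

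**Figure D3:**
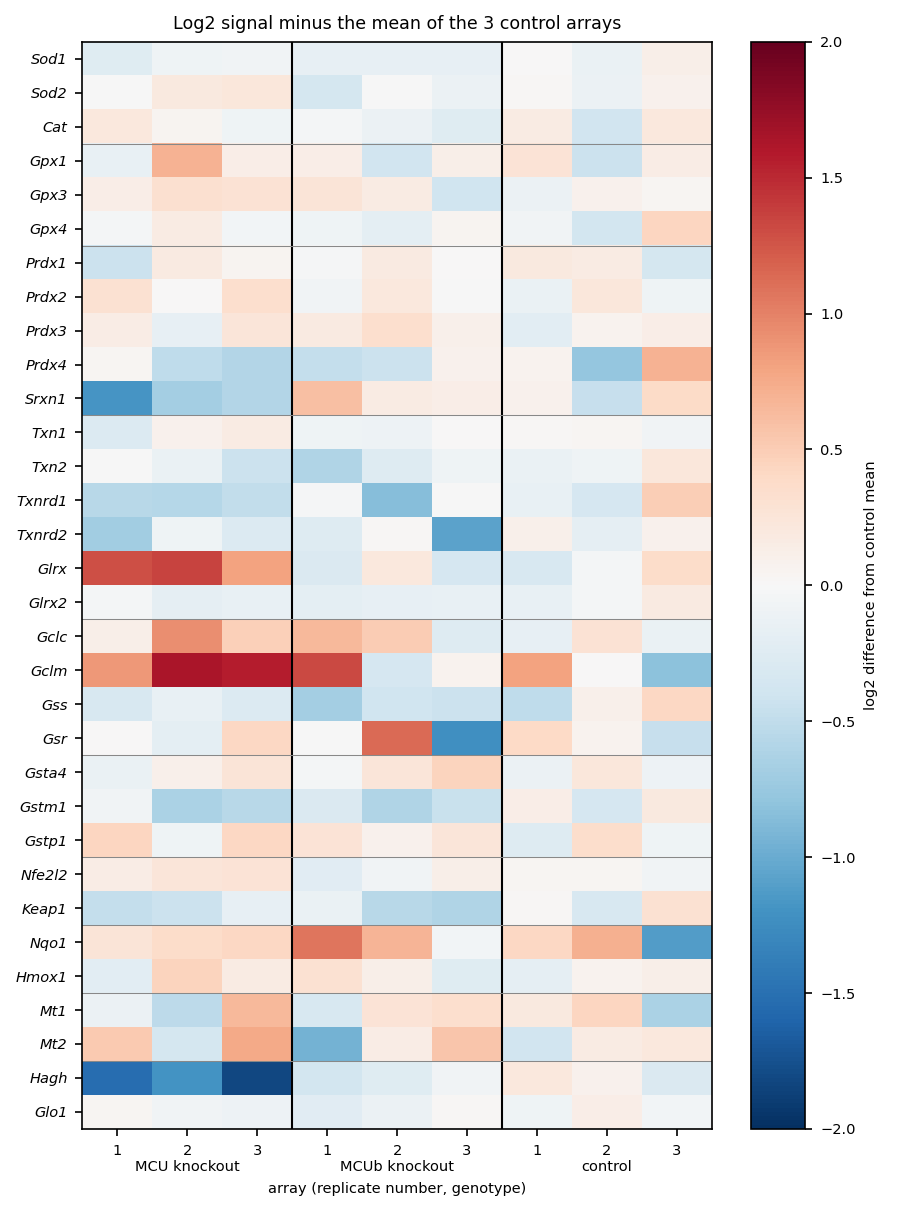
Log2 signal of each of the 32 measured genes (rows, grouped by role) on each of the 9 arrays (columns, by genotype), minus the mean of the 3 control arrays. Red is higher and blue lower than that mean. Hagh is low on the 3 MCU knockout arrays, Glrx is high on them, and Gclm is high on MCU knockout replicates 2 and 3 and MCUb knockout replicate 1.

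Counted over the 32 genes, 1 passed between MCU knockout and control, where 0.14% of all probe sets tested did. At an unadjusted p under 0.05 there were 4, Glrx and Gclm higher and Srxn1 and Hagh lower, or 12.5% against 10.1% of all probe sets. The groups did not overlap for 7 genes, or 21.9% against 13.4%: Gpx3, Glrx, Gclm and Nfe2l2 were higher and Srxn1, Txnrd1 and Hagh lower, with Nfe2l2 under the background limit. The median log2 change was 0.04, against -0.02 over all probe sets. Changes of 18 genes lay above 0 and of 14 below.

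Between MCUb knockout and control, 0 of the 32 genes passed in limma, where 0.0225% of all probe sets did. An unadjusted p under 0.05 was reached by 0 of them, against 8.11% of all probe sets, and the groups did not overlap for Sod1 alone, against 12.8%. The median log2 change was -0.07, against -0.03 over all probe sets. Between MCU knockout and MCUb knockout, 0 passed in limma, where 0.158% of all probe sets did, and 3 had an unadjusted p under 0.05 (Glrx higher, Srxn1 and Hagh lower, against 5.7%). The groups did not overlap for 6 genes, against 12.8% of all probe sets: Sod2, Glrx, Gss and Nfe2l2 were higher in MCU knockout, and Srxn1 and Hagh lower. Of these, Gss and Nfe2l2 were under the background limit in both knockouts. The comparisons of each knockout with control share the control arrays. The precision was limited by the number of arrays, with a median 95% interval of 0.48 on either side of a member's log2 change.

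**Figure D4:**
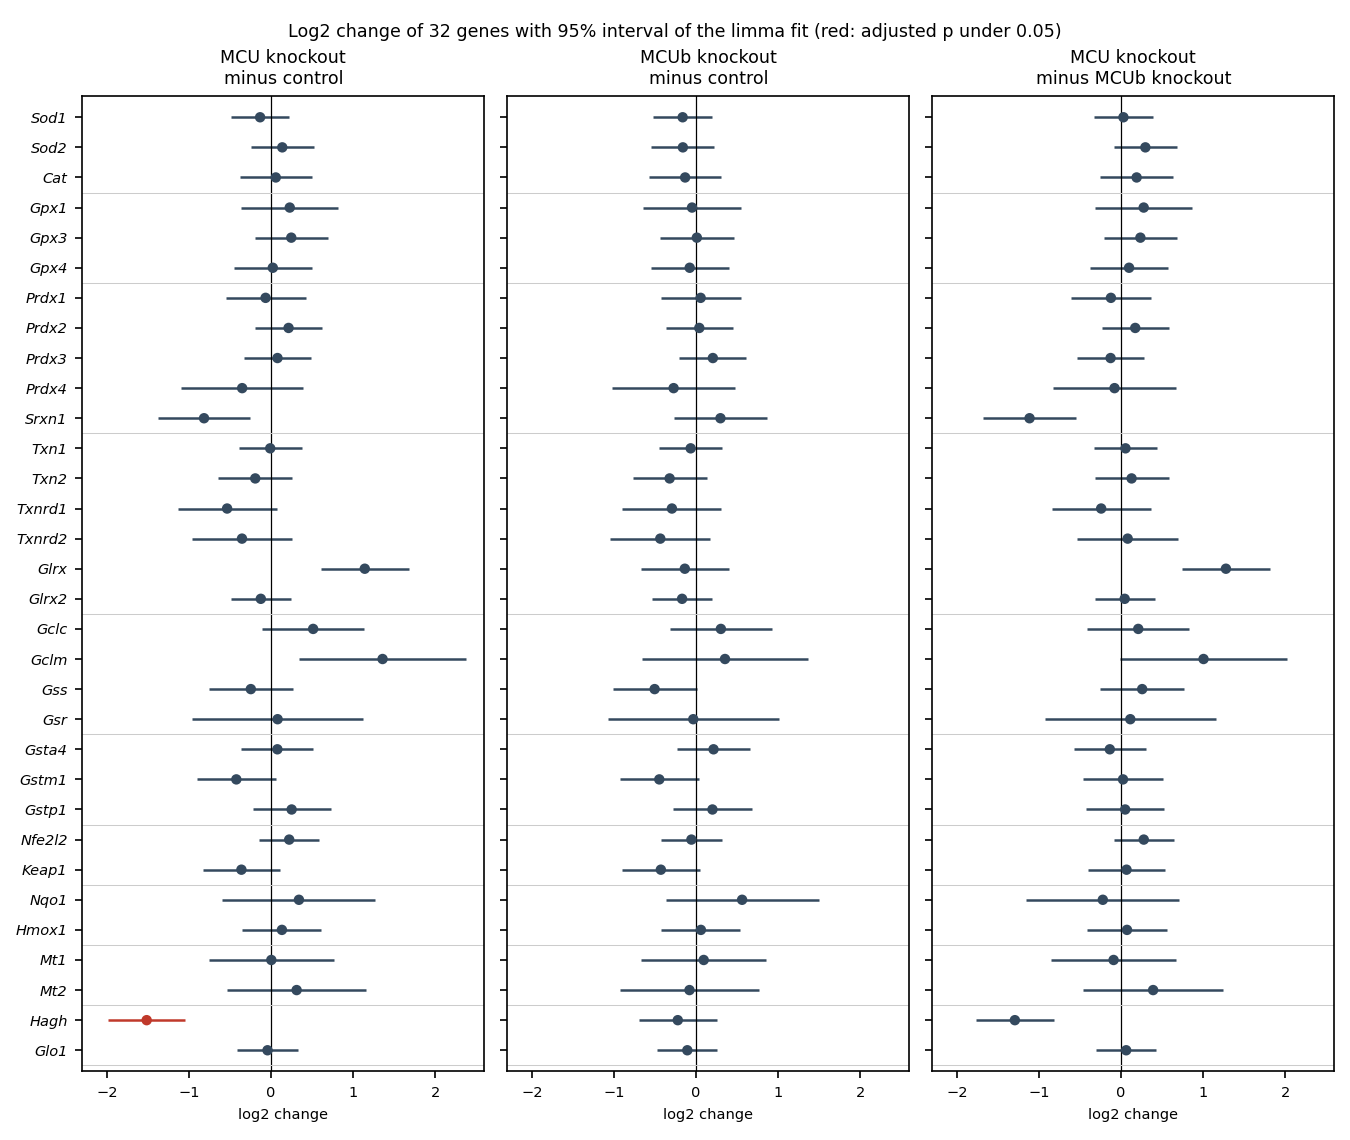
Log2 change of each of the 32 genes (points, with the 95% interval of the limma fit as lines) for MCU knockout minus control, MCUb knockout minus control and MCU knockout minus MCUb knockout. Red marks an adjusted p under 0.05, reached by Hagh at -1.51 between MCU knockout and control. Glrx, at 1.14 and 1.28, and Gclm, at 1.36 and 1.01, have the largest positive changes where MCU knockout is compared.

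Beyond these genes, 109 of 116 further genes of redox metabolism were measured, and 0 passed in any comparison in limma. Of all probe sets, 0.14% passed between MCU knockout and control, 0.0225% between MCUb knockout and control and 0.158% between the knockouts. At such shares a count of 0 says little. At an unadjusted p under 0.05, 7 were higher and 3 lower in MCU knockout than in control, 9 and 6 in MCUb knockout than in control, and 4 and 2 in MCU knockout than in MCUb knockout. These were 9.17%, 13.8% and 5.505% of the 109 genes, against 10.1%, 8.11% and 5.7% of all probe sets. Their median log2 changes were 0.01, -0.03 and 0.01. Pon2, a membrane lactonase with antioxidant activity, had log2 signals of 12.89, 13.58 and 13.21 in MCU knockout, 13.00, 12.89 and 12.85 in MCUb knockout and 12.48, 12.32 and 12.11 in control. Both knockouts lay above all controls, by 0.92 (adjusted p = 0.201) and 0.61 (adjusted p = 0.535). Its 3 highest values, 13.58, 13.21 and 13.00, were on the 3 arrays with high Y-linked signal, of which none was a control. Over the 18 alternatives the Pon2 changes ran from 0.74 to 1.09 and from 0.51 to 0.70, with limma adjusted p-values up to 0.554 and 0.793. Msrb2, the mitochondrial methionine sulfoxide reductase, had log2 signals of 10.51, 10.64 and 10.31 in MCU knockout, 10.42, 10.56 and 10.09 in MCUb knockout and 8.96, 10.02 and 8.59 in control. Both knockouts again lay above all controls, by 1.30 (adjusted p = 0.251) and 1.17 (adjusted p = 0.477). Without control replicate 2, the highest of the 3 controls, they were 1.71 and 1.59 and both passed, with adjusted p-values of 0.0160 and 0.0446. In 17 of 18 alternatives neither passed, and the limma adjusted p-values rose to 0.529 and 0.767. Over single arrays left out, the Msrb2 changes ran from 0.995 to 1.71 in MCU knockout and from 0.868 to 1.59 in MCUb knockout.

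Haghl, named for its similarity to Hagh and also on chromosome 17, had signals on the other side of control from Hagh in MCU knockout muscle. Its log2 signals were 7.82, 7.36 and 7.68 in MCU knockout, 7.11, 7.95 and 7.50 in MCUb knockout and 7.08, 6.78 and 7.09 in control. Both knockouts lay above all controls, by 0.64 (adjusted p = 0.416) and 0.54 (adjusted p = 0.604), and neither passed. Aldh1a1, a retinaldehyde dehydrogenase that also oxidises lipid aldehydes, had 12.46 ± 0.65 in MCU knockout and 11.55 ± 0.22 in control (change 0.91, adjusted p = 0.408). Its 3 highest values, 12.69, 12.96 and 12.25, were on the 3 arrays with high Y-linked signal, and with that level in the fit the change was 0.34 (adjusted p = 0.773). Cybb, the catalytic subunit of the phagocyte NADPH oxidase, had 9.02 ± 0.52 in MCUb knockout and 7.83 ± 0.73 in control (change 1.19, adjusted p = 0.534). The mean log2 signal of 7 macrophage markers ran from 6.91 to 7.41 in MCU knockout, 6.40 to 7.53 in MCUb knockout and 6.74 to 7.31 in control. That of 3 neutrophil markers, of which 0 were above background on all 9 arrays, ran from 4.58 to 4.76 in MCU knockout, 4.495 to 7.73 in MCUb knockout and 4.55 to 7.50 in control. The part of either cell type in the Cybb values was not tested.

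Ucp3, the uncoupling protein of skeletal muscle mitochondria, differed most between the knockouts among the 109 genes. Its log2 signals were 12.77, 11.39 and 12.22 in MCU knockout, 10.34, 10.70 and 9.58 in MCUb knockout and 10.80, 11.23 and 11.79 in control. MCU knockout lay above MCUb knockout on every array, by 1.92 (SE 0.39, 3.79-fold), and the difference did not pass (limma adjusted p = 0.135). MCUb knockout also lay below every control, by a change of -1.07 (adjusted p = 0.556), while MCU knockout overlapped with control. Xdh, xanthine dehydrogenase, differed between the knockouts by -1.20 (adjusted p = 0.565) and Gpx8, a peroxidase of the endoplasmic reticulum, by 0.55 (adjusted p = 0.685). Without MCU knockout replicate 1 the Xdh difference was -1.70 and passed, with an adjusted p of 0.0404. That array, at 10.16, overlapped with MCUb knockout at 10.15 to 10.72. MCU knockout replicates 2 and 3, at 8.55 and 8.78, were arrays with high Y-linked signal. In 17 of 18 alternatives Xdh did not pass, with limma adjusted p-values up to 0.999. Over single arrays left out its difference ran from -1.70 to -0.89. Gstcd was above background on 0 arrays.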

How the data were processed

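RNA of 9 tibialis anterior samples was measured on Affymetrix Clariom S mouse arrays. The deposited log2 values, 1 per probe set and array, came from Affymetrix Expression Console, according to the authors and per the submitters' processing notes. Its version, summarisation, normalization and log base are not given in the sources used here. Array medians lay between 5.51 and 5.60. Of 28846 values per array, 6640 control features were left out. Genes were named by the platform annotation, updated through RefSeq identifiers.

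The values were fitted as deposited with limma 3.58.1 (R 4.3.3; two-sided moderated test): 3 group means over all 9 arrays, 6 residual degrees of freedom, 95% intervals. The model was tested on simulated data.

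The genes and lists were chosen with earlier results of these data known. Values on every array are given for genes past the threshold, the 5 smallest p-values in each comparison and the genes named for their role. Of the other redox genes, the 4 smallest p-values in each comparison are named, and for Hagh and Glo1 the 3 measured genes on either side. Msrb1 values per array and the Gpx3 and Sod1 ranges were chosen after they were seen.

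Same-numbered replicates of different groups had deviations that correlated between -0.12 and 0.088, so the numbers were not used to pair samples. Alternatives were quantile normalization, centring, a filter on dim probe sets, a robust prior with an intensity trend, array weights, the 2 groups alone, a replicate block, the Y-linked level as a covariate, the mean over a gene's probe sets, and leaving out each array.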

Additional observations from a re-analysis of the deposited data

How the results depend on the processing

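Between MCU knockout and control, the count of the 32 genes past the threshold was 1, and it was 0 with only the 2 groups compared, with the replicate block and with the Y-linked covariate, and 0 to 1 with single arrays left out. The adjusted p of Hagh ran from 0.0119 to 0.186 over 18 alternatives, and its direction was the same in all of them. The replicate block gave 0.0559, and it changed no other call of these genes. Between the knockouts the count of 0 became 1, Hagh, with the filter on dim probe sets, the robust trend and the array weights, and ranged from 0 to 1 with single arrays left out (1 without control replicate 3). In MCUb knockout the count was 0 throughout. Of all probe sets, 31 passed between MCU knockout and control (16 with the Y-linked covariate, 20 to 98 with single arrays left out), 5 between MCUb knockout and control (1 with only the 2 groups, 0 to 20) and 35 between the knockouts (61 with array weights, 13 to 43). The median change of the 32 genes ran from -0.0158 to 0.0916 between MCU knockout and control and from 0.0454 to 0.122 between the knockouts with single arrays left out. The Gclm change between MCUb knockout and control, 0.35 over all arrays, turned to -0.06 without control replicate 3 and to -0.13 without MCUb knockout replicate 1, within -0.13 to 0.76 over single arrays left out. Gss gave no value under the filter on dim probe sets. The causes were not tested.

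Signals near the background limit bound Srxn1, Gss, Nqo1, Nfe2l2, Hmox1 and, on control replicate 2, Prdx4, and the number of arrays limits the rest.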

Other observations

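On the 3 arrays with high Y-linked signal, 3 of the 32 genes (9.38%) lay outside the range of the other 6 arrays, against 3.57% of all probe sets. These were Gpx3, Gclm and Hmox1, all higher, Hmox1 under the background limit. Of the 109 further redox genes 12 did so (11.0%), 9 higher and 3 lower. Mgst1, a microsomal glutathione transferase chosen after its values were seen, had log2 signals of 8.45, 12.07 and 11.88 in MCU knockout, 11.22, 9.38 and 9.02 in MCUb knockout and 9.15, 7.65 and 9.18 in control. Its change of 2.14 between MCU knockout and control (SE 0.89, limma adjusted p = 0.468) did not pass. Idh2, the mitochondrial isocitrate dehydrogenase that supplies NADPH and likewise chosen after its values were seen, had 15.37, 13.93 and 14.02 in MCU knockout, 14.53, 14.92 and 14.92 in MCUb knockout and 15.53, 15.09 and 15.32 in control. Sex is not among the labels, and the part of the Y-linked level in these values was not tested.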
